A study of Homo sapiens with 3 samples.

Results

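Aryl hydrocarbon receptor (AHR) signaling was followed through 6 genes in H2373 cells, a line derived from malignant pleural mesothelioma. The genes were AHR itself, its partner ARNT, its repressor AHRR and the target genes CYP1A1, CYP1B1 and TIPARP. They were chosen by name, as every probe that the array annotation pairs with one of these symbols. This gave 7 probes for 6 of the 18851 genes with a probe, 2 probes for AHR and 1 for each of the others. Cells were treated with Hoechst 33342 (H342) or Hoechst 33258 (H258), each at 36 µM for 3 h, or were left untreated. Both dyes bind the minor groove of AT-rich DNA. They differ on the terminal phenyl ring, which is ethoxy-substituted in H342 and hydroxy-substituted in H258. RNA of each condition was hybridized to 1 Illumina BeadChip array, so no condition had a replicate. The time in culture of the untreated cells and a solvent control are not given in the sources used here. The choice of genes was made with results of these arrays known, and every value of the 6 genes is therefore a description.

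AHR is a transcription factor of the bHLH-PAS family. Without ligand it is held in the cytosol by HSP90 and co-chaperones. Ligands such as dioxins, polycyclic aromatic hydrocarbons and tryptophan products release it to the nucleus, where it pairs with ARNT and binds xenobiotic response elements with the core GCGTG. The pair turns on genes of xenobiotic metabolism, first among them the P450 enzymes CYP1A1 and CYP1B1. It also turns on its own brakes: AHRR competes with AHR for ARNT, and TIPARP, a mono-ADP-ribosyltransferase also called PARP7, modifies AHR and lowers its activity.

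The signals are bead averages with no background subtracted, and each comes with a detection p that sets the probe against beads without a target on that array. A probe was taken as detected at p under 0.05. The lowest detected signals were 157 under H342, 160.0 under H258 and 156 in untreated cells, and 9820, 9824 and 10221 genes were detected on these arrays in the same order. Differences are on a log2 scale after background correction and quantile normalization. A gene was tested when either array of a pair detected it, and called when the pair differed by 2-fold or more. With 1 array per condition there is no error between arrays and no p-value, and every difference compares single arrays. Of 12 markers of mesothelial cells 9 were detected on at least 1 array, among them MSLN, WT1 and CALB2, while PDPN, UPK3B and KRT5 were not. Of 5 leukocyte markers PTPRC and CD3E were not detected on any array, and CD14, LYZ and CD68 were detected on at least 1, CD68 at 3104 under H342, 3769 under H258 and 2733 in untreated cells. By their brightest probes the 11 control genes measured, such as ACTB and GAPDH, lay between -0.26 and 0.12 under H342. Under H258 they lay between -0.34 and 0.15, each against untreated cells. Dimmer probes went beyond these ranges, with GAPDH at 0.29 under H342 and TUBB at 0.19 under H258.

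The stretches just upstream of 3 of the genes are shown because AHR and ARNT act through the GCGTG core, and because TIPARP, CYP1A1 and AHR differ in how many copies of it they hold. Each run holds the 250 bases before the RefSeq start of the gene in build GRCh38.p14, written 5′ to 3′ on the strand of the gene. Capitals mark the core GCGTG or its reverse complement CACGC. TIPARP is shown at its first start, chr3:156674340-156674589 on the plus strand, CYP1A1 at chr15:74725529-74725778 on the minus strand and AHR at chr7:17298402-17298651 on the plus strand.
TIPARP: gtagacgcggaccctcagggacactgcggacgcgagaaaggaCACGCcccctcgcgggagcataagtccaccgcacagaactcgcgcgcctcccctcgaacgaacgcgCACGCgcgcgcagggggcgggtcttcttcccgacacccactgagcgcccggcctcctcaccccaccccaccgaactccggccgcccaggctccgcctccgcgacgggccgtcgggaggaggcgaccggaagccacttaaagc
CYP1A1: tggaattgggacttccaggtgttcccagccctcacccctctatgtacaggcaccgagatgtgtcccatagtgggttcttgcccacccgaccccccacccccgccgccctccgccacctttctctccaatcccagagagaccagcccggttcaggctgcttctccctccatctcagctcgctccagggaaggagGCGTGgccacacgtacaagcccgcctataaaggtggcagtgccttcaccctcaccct
AHR: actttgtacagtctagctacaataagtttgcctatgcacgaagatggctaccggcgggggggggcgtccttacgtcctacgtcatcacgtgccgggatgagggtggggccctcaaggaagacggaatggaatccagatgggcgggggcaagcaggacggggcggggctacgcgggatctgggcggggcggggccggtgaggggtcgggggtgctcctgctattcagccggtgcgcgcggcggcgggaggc

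The TIPARP stretch held 2 cores, which begin 208 and 142 bases before the start, and the CYP1A1 stretch held 1, which begins 57 bases before it. The AHR stretch held 0. A core on either strand occurred in 32.2% of the 35116 stretches of this length in the RefSeq table, so its presence sets no gene apart. The longer motif TNGCGTG, which contains the core, occurred in 4.52% of them and in none of the 3 shown. It was found once before the first of 2 listed starts of AHRR. CYP1B1 was not searched. ARNT had 0 cores, AHRR had 1 before its first listed start and 2 before its second, and TIPARP had 0 before its other 2 listed starts. AATT, a site of the kind that Hoechst dyes prefer and its own reverse complement, occurred in 43.0% of all stretches, with 0 copies in the TIPARP and AHR stretches shown and 1 in that of CYP1A1. The third listed TIPARP start had 2 copies and an A and T share of 62%. In the stretches shown the share of A and T was 28.4% for TIPARP, 37.6% for CYP1A1 and 33.2% for AHR, against a median of 42% over all stretches. A match of letters does not show a bound site, and enhancers further upstream were not searched.

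CYP1B1 and TIPARP were far lower under H342 than in untreated cells or under H258, while the receptor AHR itself stayed near its untreated signal. CYP1B1 encodes a P450 enzyme that oxidizes polycyclic hydrocarbons and estradiol. Its signal was 182 under H342, 949 under H258 and 1459.6 in untreated cells. The H342 array was the lowest by a wide margin, close to the limit of detection with a detection p of 0.0184, while the probe was bright on the other arrays. CYP1B1 had a log2 difference of -4.12 between H342-treated and untreated cells, which is 17.4-fold lower, and 3 of the 10581 genes tested had a lower value. Because the H342 signal lies close to background, the size of this fold depends on the correction: the signals as deposited differed by 8.04-fold, and the log2 difference was -2.94 without background correction. The arrays measure bulk RNA, so less of a transcript in every cell and its loss from a part of the cells cannot be told apart.

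TIPARP had a signal of 623 under H342, 5321 under H258 and 6526 in untreated cells. All 3 signals lie well above the limit of detection, so the background correction matters less here than for CYP1B1. The log2 difference between H342-treated and untreated cells was -3.59, which is 12.0-fold lower, against 10.5-fold in the signals as deposited. Without background correction it was -3.34, below CYP1B1 at -2.94. With the correction, only 5 of the 10581 genes tested had a lower value than TIPARP.

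**Figure D1:**
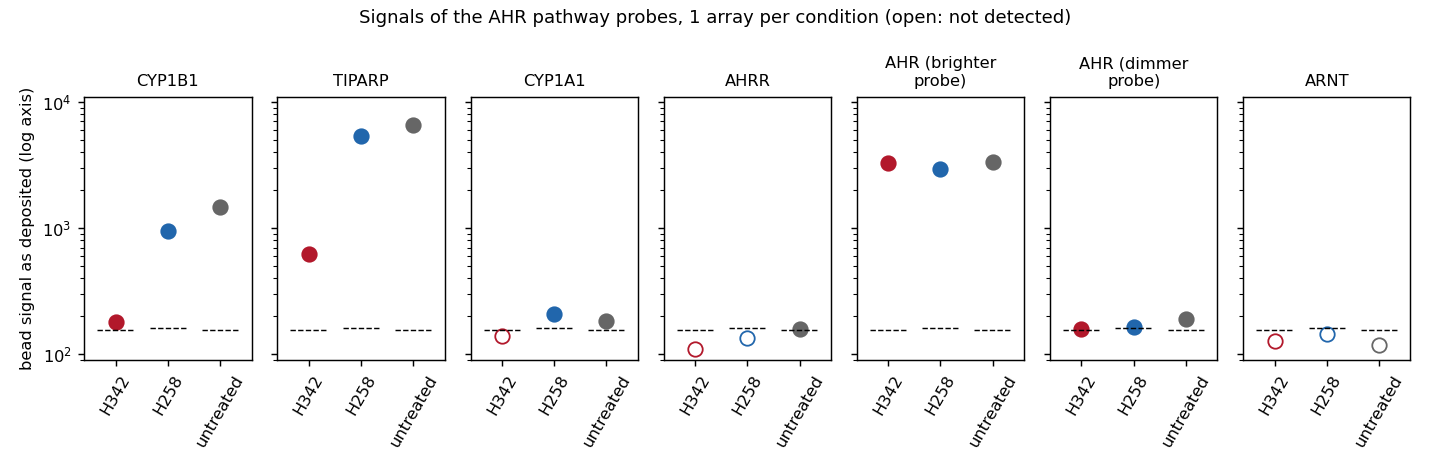
Bead signal as deposited (log axis) of the 7 probes on the H342, H258 and untreated arrays, 1 point per array. Filled points were detected at p under 0.05, open points were not, and dashes mark the lowest detected signal of each array. CYP1B1 drops to 182 and TIPARP to 623 under H342, while the brighter AHR probe lies between 2927 and 3350.0 on all arrays.

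CYP1A1, the classical AHR-induced P450, was dim in these cells. Its signal was 139 under H342, 209 under H258 and 184 in untreated cells, and it was not detected under H342. The H258 array was thus the highest of the 3 and the H342 array the lowest, all of them close to background. With the undetected side set to the lowest detected signal, CYP1A1 under H342 was at least 1.33-fold lower than in untreated cells. Such bounds hold on the background-corrected scale only, and the uncorrected CYP1A1 difference was -0.35. Under H258 the log2 difference was 0.51, so neither dye reached 2-fold. At a stricter detection p of 0.01 the probe was detected on no array, and no difference can then be given.

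AHR had signals of 3249 under H342, 2927 under H258 and 3350.0 in untreated cells with its brighter probe. These are close to each other and all far above background. Set against untreated cells on the log2 scale, AHR was at 0.07 with H342 and -0.19 with H258, and 85.3% and 67.6% of the genes tested differed by at least as much. The sign under H342 is not settled, since it was -0.02 with median scaling and -0.04 with no normalization between arrays. The dimmer AHR probe, at 159.5 under H342, 166 under H258 and 190.3 in untreated cells, lay just above the limit of detection on every array and differed from untreated cells by -0.46 with H342 and -0.39 with H258. Neither AHR probe reached 2-fold under either dye.

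AHRR, the repressor, was detected in untreated cells only, with a signal of 157 there, against 110.5 under H342 and 135 under H258. The untreated signal stood at the limit of detection, so no fold can be given for either dye. ARNT, the partner of AHR, was not detected on any array, at 128 under H342, 144 under H258 and 119 in untreated cells. For ARNT the array therefore gives no comparison, and at this sensitivity its level remains unmeasured.

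All but ARNT were tested against untreated cells. With H342, 2 of these 5 genes lay 2-fold or more below untreated cells, CYP1B1 and TIPARP, and 0 lay as far above them. Of all genes tested 4.86% passed 2-fold in either direction, with 3.61% lower (382 genes) and 1.25% higher (132 genes). With the authors' normalized values these counts were 140 lower and 23 higher. The median log2 difference of the 5 genes was -0.75, and that of all 10581 genes was 0.03. Since the genes were chosen with these values known, nothing is read from this count.

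Under H258 none of the 5 tested genes differed from untreated cells by 2-fold. CYP1B1 had a log2 difference of -0.63 against untreated cells and TIPARP -0.34, and 1045 and 2245 of the 10550 genes tested had lower values. Both lie in the bulk of all genes, as does CYP1A1 at 0.51. Of the 5 genes tested 0 reached 2-fold in either direction, where 4.11% of all genes did. Of these 353 (3.35%) were lower and 81 (0.768%) higher, against 85 and 3 with the authors' normalized values. The median of the 5 genes was -0.34, against 0.06 for all genes. Every comparison with untreated cells rests on the same untreated array, so the values of the 2 dyes are not independent of each other.

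**Figure D2:**
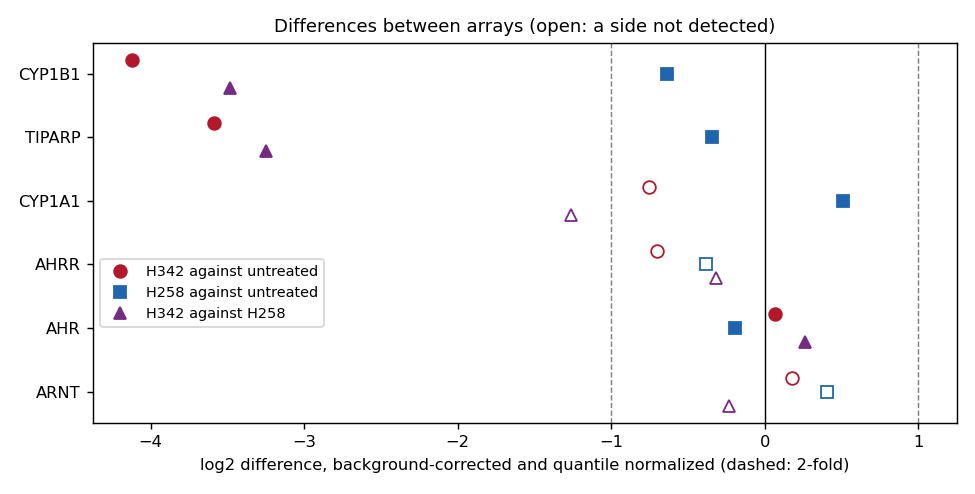
Log2 differences of the brightest probe of each gene for H342 against untreated, H258 against untreated and H342 against H258, after background correction and quantile normalization. Open symbols have at least 1 side that was not detected, and dashed lines mark 2-fold. CYP1B1 at -4.12 and TIPARP at -3.59 lie far from 0 under H342, and no gene passes a dashed line under H258.

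The dyes were given at the same dose in the medium for the same time, and the treated arrays were set against each other directly. This was the only pair of compounds compared. The paper proposes that transport into the cell differs between the dyes. The amount of dye inside the cells is not known for these arrays. The paper also reports apoptosis of this cell line under H342 and no such cell death under H258. How far apoptosis had gone in the cells used for these arrays is not known. Whether it contributed to the differences between the dyes was not tested. With H342, CYP1B1 was 11.2-fold and TIPARP 9.51-fold below their H258 levels, at log2 differences of -3.49 and -3.25. Only 2 of the 10296 genes tested lay below CYP1B1, and 4 lay below TIPARP. AHR differed by 0.26, and 52.4% of all genes differed by at least as much. CYP1A1 had a log2 difference of -1.26, which counts as a call, but its H342 side was not detected and its background-corrected bound was 1.90-fold, short of 2-fold. AHRR and ARNT were detected with neither dye. Of the 4 genes tested 3 were thus called lower and 0 higher, where 7.43% of all genes passed 2-fold, 3.69% as lower and 3.74% as higher. Without background correction the order turned, with TIPARP at -3.01 below CYP1B1 at -2.37. Both stayed past 2-fold, and CYP1A1 at -0.58 did not. With 1 array per dye no interval can be put on these differences, including those that are small.

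**Figure D3:**
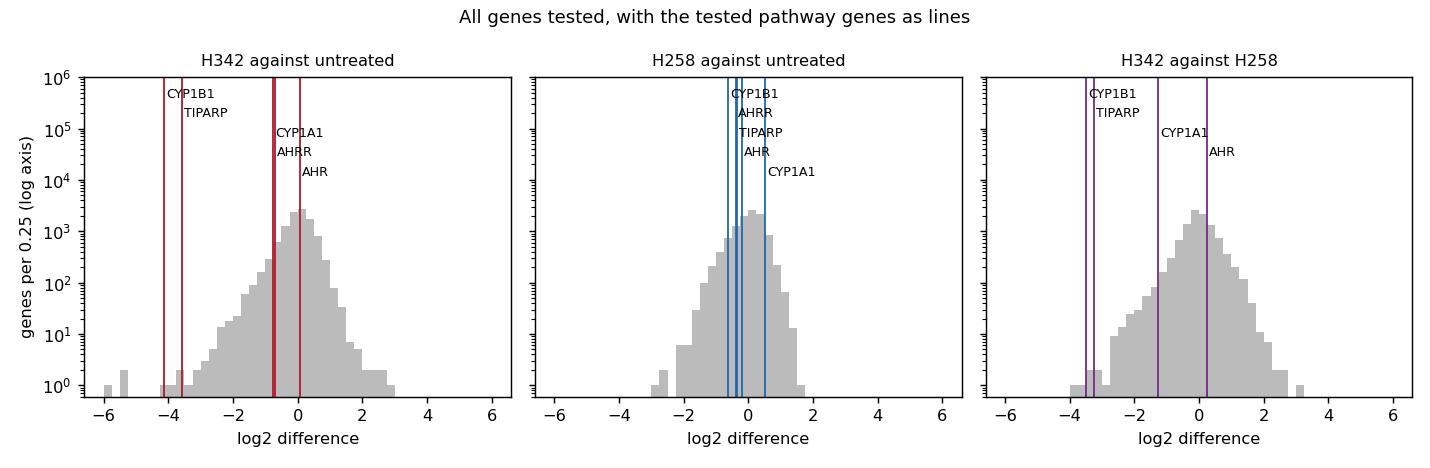
Number of genes (log axis) per log2 difference, in bins of 0.25, for each of the 3 comparisons, with the tested AHR pathway genes as vertical lines. In the outer panels CYP1B1 and TIPARP stand at the sparse lower end, while in the panel of H258 against untreated all 5 genes lie within the bulk.

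The genes whose pair of differences against untreated cells lay nearest to TIPARP, by Euclidean distance over the 3 arrays and among 10216 genes detected in untreated cells, were PTGS2 at a distance of 0.16, BDKRB1 at 0.31 and MARS2 at 1.01. PTGS2, the inducible cyclooxygenase, had a signal of 146 under H342, where it was not detected, against 592 under H258 and 685 in untreated cells. BDKRB1, the bradykinin B1 receptor, had 273 under H342, 2115 under H258 and 2691 in untreated cells. MARS2, the mitochondrial methionyl-tRNA synthetase, had 168, 483 and 510.2 in the same order. All 3 were thus high under H258 and in untreated cells and low under H342, as TIPARP was. The nearest to CYP1B1 were BDKRB1 at 0.36, PTGS2 at 0.70 and the small nucleolar RNA gene SNORA25 at 1.30, whose signals of 192, 397 and 784 also set H258 apart from untreated cells. For CYP1A1 the nearest were SEPHS2, a selenophosphate synthetase, and ZSWIM1, both at 0.01, and HARBI1 at 0.03. CYP1A1 was not detected under H342, nor was HARBI1 with a signal of 136 there. The distances from CYP1A1 therefore rest on a fitted value near background, as do those of PTGS2 from TIPARP and CYP1B1. CYP1B1 and MARS2 were detected under H342, but close to the limit of detection. All distances given here are descriptive and say nothing of shared control.

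Other genes known to be induced through AHR in some tissue included calls in both directions. Of 22 such genes on the array, apart from the 6, 14 were tested under H342. Of these 2 were called lower and 1 higher, where 3.61% of all genes were lower and 1.25% higher, and their median was -0.44, against 0.03 for all genes. By its brighter probe PTGS2 was at least 10.4-fold lower on the background-corrected scale, and its uncorrected log2 difference was -2.16. The dimmer PTGS2 probe, also not detected under H342, had a smaller log2 difference of -1.54. ALDH3A1, an aldehyde dehydrogenase of the classical AHR battery, had a signal of 120 under H342, where it was not detected, 202 under H258 and 436 in untreated cells. Relative to untreated cells it was at least 5.88-fold lower under H342 on the background-corrected scale, and its log2 difference under H258 was -1.75. The uncorrected differences, -1.80 with H342 and -1.06 with H258, were also past 2-fold. HES1, a transcriptional repressor downstream of Notch, went the other way. Its signals were 393 under H342, 234 under H258 and 193 in untreated cells, with log2 differences of 1.87 and 0.66. NQO1, the quinone reductase of the same battery, was bright on all arrays, at 11182 under H342, 11958 under H258 and 13209 in untreated cells, and had differences of only -0.14 and -0.20. It is named after its values were seen.

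Under H258, ALDH3A1 was the only one of 15 tested genes of this list past 2-fold, and the median was -0.02, which turned to 0.01 with median scaling and with no normalization between arrays. Between the dyes, 3 of 14 were lower and 2 higher with H342, where 3.69% of all genes were lower and 3.74% higher. By its brighter probe PTGS2 was at least 9.16-fold lower on the background-corrected scale and -2.01 without correction. The cytokine gene IL1B had a log2 difference of -1.31, and ALDH3A1 fell short of 2-fold by its bound at -0.81. HES1 at 1.21 and CCNG2, an atypical cyclin, at 1.02 were higher. IL1B at -0.90, HES1 at 0.77 and CCNG2 at 0.61 fell short of 2-fold without background correction.

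**Figure D4:**
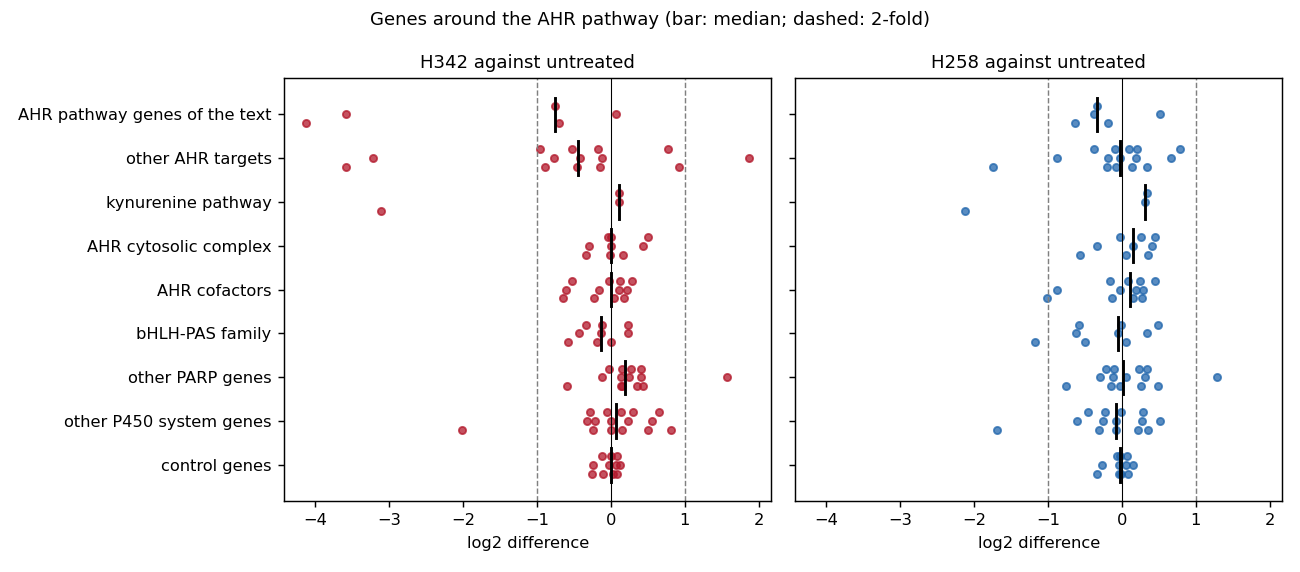
Log2 differences of the tested genes of each list against untreated cells, under H342 on the left and under H258 on the right, 1 point per gene, with the median of each list as a bar and 2-fold as dashed lines. Of genes detected on the H342 array, CYP1B1 at -4.12 and TIPARP at -3.59 are the lowest points there. Points with a side that was not detected, among them PTGS2, ALDH3A1 and CYP24A1 under H342, are drawn at their fitted values. The control genes lie close to 0 under both dyes.

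In the cytosol AHR sits in a complex with HSP90, and 9 genes of that complex and of AHR turnover were measured. All 9 were detected on every array, and by their brightest probes 0 reached 2-fold in any comparison, where 4.86%, 4.11% and 7.43% of all genes did. A dimmer probe of DDB1, a subunit of a ubiquitin ligase, had 304 under H342, 173 under H258 and 167 in untreated cells, a log2 difference of 1.81 for H342 against untreated cells. The signals of this probe as deposited differed by less than 2-fold. Another dimmer DDB1 probe had 0.57 and the brightest 0.16. HSP90AA1, the inducible HSP90, had signals of 25804 under H342, 19060 under H258 and 27168 in untreated cells. By their brightest probes the scaffold CUL4B and the ubiquitin ligase STUB1 had the largest differences under H342, 0.51 and 0.43. Their dimmer probes, detected on all arrays, had -0.03 and 0.10. Of 12 detected cofactors of AHR and ARNT, 0 reached 2-fold under H342. The retinoblastoma gene RB1, whose product binds AHR, was the only one past it under H258, at -1.01, and fell short without background correction at -0.70. The medians of both lists under H342, 0.005 and 0.007, were negative with median scaling, with no normalization and with cyclic loess.

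The families to which the 6 genes belong held single calls, where 4.86% of all genes passed 2-fold under H342 and 4.11% under H258. Of 14 tested genes of the PARP family, to which TIPARP belongs, 0 were called lower under either dye. PARP10, another mono-ADP-ribosyltransferase, was higher under both, with 323 under H342, 290 under H258 and 187 in untreated cells and log2 differences of 1.57 and 1.29, but these were 0.84 and 0.67 without background correction. Of 16 tested genes of the P450 system, 1 was lower under H342, the vitamin D hydroxylase CYP24A1. It was detected in untreated cells only, at 256, and on the background-corrected scale was at least 2.59-fold lower under H342 and at least 2.56-fold lower under H258. Without correction its log2 differences were -1.02 with H342 and -0.79 with H258, so the call under H258 was lost. CYP4V2, a fatty acid hydroxylase, differed by 1.11 between H342 and H258, and by 0.59 without background correction. The oxidoreductase POR, which feeds electrons to P450 enzymes, had 469 under H342, 514 under H258 and 439.6 in untreated cells. Of 9 other bHLH-PAS genes tested, the circadian factor CLOCK alone passed 2-fold, at -1.17 under H258, where it was -0.85 without background correction. Its dimmer probe, detected on all arrays, fell short at -0.94 under H258.

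Among enzymes that make or break down tryptophan products, some of which are AHR ligands, only 3 of 11 were detected. KYNU, which cleaves kynurenine, had signals of 187 under H342, 266 under H258 and 829 in untreated cells. Its log2 values relative to untreated cells, -3.11 with H342 and -2.13 with H258, were thus low with both dyes. Its H342 signal lay near background, and without correction these values were -2.08 and -1.58. IDO1 and TDO2, the enzymes that open the pathway, were not detected on any array.

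**Figure D5:**
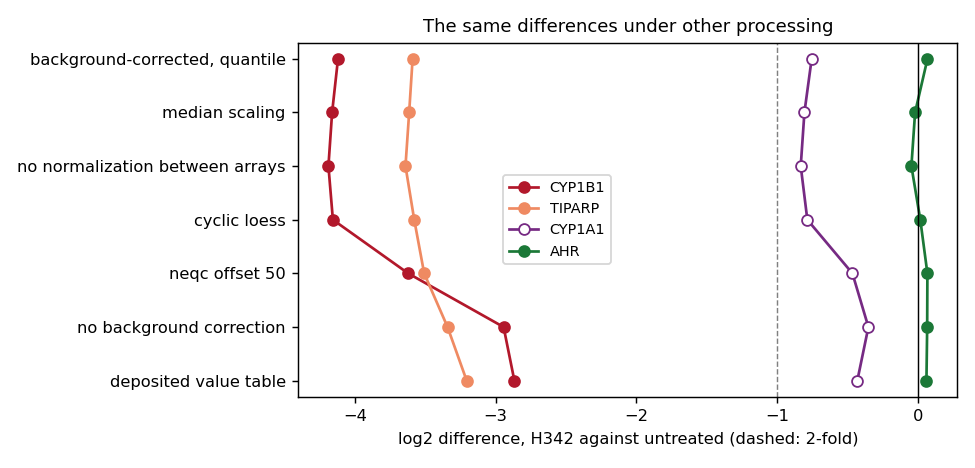
Log2 differences between H342-treated and untreated cells for CYP1B1, TIPARP, CYP1A1 (open, not detected under H342) and AHR under 7 ways of processing the same arrays, with 2-fold as a dashed line. TIPARP stays between -3.64 and -3.21 and CYP1B1 between -4.19 and -2.87, while CYP1A1 never reaches -1 and AHR stays near 0.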

How the data were processed

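H2373 cells that had received H342 or H258, each at 36 µM over 3 h, or no dye were measured on 1 array per condition. The authors deposited bead-averaged intensity values made with BeadStudio 3.1.3.0, without background subtraction, and a detection p-value per probe. They also deposited normalized intensity values on a linear scale, with no method given in the sources used here, which served as an alternative. The file header names an earlier version of the array than the paper, and probes were named by the annotation of that earlier version. Of 48798 probes, 28093 had 1 gene symbol, 20692 had none and 13 had several.

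Signals were corrected (normexp on detection p-values, offset 16), quantile normalized and taken to log2 with neqc in limma 3.58.1 (R 4.3.3). Counts and figures were made in Python 3.11.15 with numpy 2.4.6, pandas 2.3.3 and matplotlib 3.10.9. A gene was read from the probe with the highest mean signal. The number of arrays limits the precision. Where 1 side was not detected, the lowest detected signal on its array gave a bound, which holds on the corrected scale only. Differences past 2-fold are called, with no test, since no error between arrays exists. In the lists of related genes every gene past 2-fold in a comparison is named, otherwise the pair with the largest differences under H342. For each called gene of the 6, the 3 nearest genes are named. The 6 genes and the lists were chosen with earlier results of these data known. The steps were tested on simulated data. Alternatives were other offsets, no background correction, other normalizations, other detection limits, other folds and other summaries of probes.

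Marker lists were read by the same rule. Detected on at least 1 array were 9 of 12 mesothelial, 3 of 5 leukocyte (CD14, LYZ, CD68), 1 of 4 endothelial (PECAM1), 1 of 5 lung epithelial (EPCAM, under H342 only) and 4 of 6 fibroblast markers.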

Additional observations from a re-analysis of the deposited data

How the results depend on the processing

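No replicate could be left out, and the limits lie in dim signals and single arrays. No paired analysis was possible because each condition had 1 array. No difference of CYP1B1 or TIPARP past 2-fold lost that call under any alternative run. TIPARP ranged between -3.64 and -3.21 for H342 against untreated cells and between -3.34 and -2.89 for H342 against H258. CYP1B1 for H342 against untreated cells was -3.62 with an offset of 50, -2.94 with no background correction and -2.87 with the authors' normalized values, and for H342 against H258 it was -3.01, -2.37 and -2.33 in the same settings. With sides not detected at p under 0.01 set to the lowest signal detected there, an alternative chosen after seeing the data, it was -3.29 and -2.66. CYP1A1 for H342 against H258 fell short of 2-fold at -0.83 with an offset of 50, -0.58 with no background correction, -0.68 with the authors' normalized values and -0.93 by its bound. The AHR difference for H342 against untreated cells was 0.07, but -0.20 as the mean of both probes.

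The counts of genes past the threshold, given for H342 against untreated, H258 against untreated and H342 against H258, were 514, 434 and 765. They were 292, 221 and 496 with an offset of 50, 172, 112 and 293 with no background correction, 163, 88 and 262 with the authors' normalized values, and 263, 236 and 483 with the stricter bound. At 1.5-fold they were 1882, 1986 and 2250, and at 3-fold 124, 31 and 153. Offsets and background correction act on signals near background by construction, and the cause of the other shifts was not tested.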

Other observations

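Second probes of genes of the AHR target and kynurenine lists gave other sizes. The direction differed in places, as for UGT1A6 under H258, at 0.19 with its brightest probe and -0.41 with a dimmer one, both dim. For ALDH1A3, a retinaldehyde dehydrogenase, the log2 difference between H342-treated and untreated cells was -0.17 with the brighter probe and close to 0, at 0.008, with the dimmer one. For NQO1 it was -0.14 and -0.64, and for AFMID, an enzyme of the kynurenine pathway, 0.11 and 0.88. For PTGS2 the dimmer probe had 125 under H342, where it was not detected, 224 under H258 and 219 in untreated cells. Its log2 differences were -1.54 for H342 against untreated cells and -1.69 for H342 against H258. The dimmer KYNU probe had 143 under H342, 157 under H258 and 297 in untreated cells, and was not detected under either dye. CDKN1B, the cell cycle inhibitor p27 and a gene reported to be induced through AHR, had a log2 difference between H342-treated and untreated cells of -0.77 with its brighter probe and -1.24 with its dimmer one, so it passed 2-fold with the dimmer probe alone. These genes are named after their values were seen.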
